A study of Mus musculus with 50 samples.

Results

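The integrated stress response was examined through 9 genes, Atf4, Atf5, Ddit3, Trib3, Asns, Psat1, Phgdh, Chac1 and Fgf21, which were taken by gene symbol from the 23880 genes of the table. Each symbol matched 1 row, and the rule itself uses no measured value. The RNA came from gastrocnemius muscle of 50 male wild type C57BL/6JRj mice, with 8 mice each at 8, 18, 22 and 24 months and 9 mice each at 26 and 28 months. All mice were singly caged, carried no engineered allele, received no treatment, and ate the same purified AIN-93M diet. The 8 and 18 months-old mice had changed to this diet at least 2 months before the endpoint, while the 22 to 28 months-old mice had eaten it since about 18 months of age, so diet history and age cannot be told apart in comparisons of 22 to 28 with 8 months. The 28 and 22 months-old mice started the diet at the same age, but the older mice had eaten it for longer. Mice with overt illness or tumors had been left out by the study, and each mouse was sampled at 1 age only.

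In the integrated stress response, kinases that sense amino acid shortage, misfolded protein in the endoplasmic reticulum, viral RNA or heme deficiency phosphorylate the translation factor eIF2α. Global translation then slows, while translation of the transcription factor ATF4 increases through small reading frames upstream of its own, and ATF4 switches on genes for amino acid synthesis, uptake and redox defence. In skeletal muscle the pathway is best known from mitochondrial myopathy, in which muscle secretes the hormone FGF21, and from starvation and disuse atrophy. Because much of the control acts on translation and phosphorylation, mRNA counts measure only one layer of it.

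ATF4 pairs with C/EBP proteins on composite sites, for which the letters TGATGNAA were searched on both strands in the 250 bases upstream of the RefSeq start of each member (GRCm38.p6; 11 windows for the 9 genes). Matches were found for 3 of the 9 members, Asns, Chac1 and Fgf21, while 3.45% of all 32851 windows of this length held one. The stretches around the matches are shown 5′ to 3′ on the strand of the gene, with the matching letters in capitals, because these 3 genes are among the best known ATF4 targets. The Chac1 stretch is chr2:119351003-119351102 on the plus strand, and its match begins 193 bases before the start.
Chac1: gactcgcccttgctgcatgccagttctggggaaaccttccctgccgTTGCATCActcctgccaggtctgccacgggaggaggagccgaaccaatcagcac
The Fgf21 stretch is chr7:45615576-45615675 on the minus strand, and its match begins 139 bases before the start.
Fgf21: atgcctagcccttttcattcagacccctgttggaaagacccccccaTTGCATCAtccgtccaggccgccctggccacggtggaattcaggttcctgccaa
The Asns stretch is chr6:7693214-7693243 on the minus strand. Its match begins 23 bases before the RefSeq start, inside the first exon that GENCODE draws further upstream, so only 30 bases are shown.
Asns: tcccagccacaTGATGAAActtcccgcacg
The windows of Atf4, Atf5, Ddit3, Trib3, Psat1 and Phgdh did not contain these letters.

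Library totals ranged from 13607229 to 21267375 assigned reads. Muscle identity was clear, since 8 fast myofibre markers summed to a median of 171376 TPM, a level that takes transcript length into account, at 8 months and 174866 TPM at 28 months. Lymphocyte markers summed to at most 3.63 TPM in any mouse. The 28 months-old mice of replicates 1 and 2 had the highest summed levels of denervation markers among all 50 mice, at 620.4 and 621 TPM, and the next mouse had 449.7 TPM. Replicate 2 also had the highest macrophage marker sum, at 751 TPM, and the lowest fast myofibre sum, at 122315 TPM. Several values are therefore given without it too. In this bulk tissue, fewer cells of a type and less RNA per cell cannot be told apart.

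The members differed widely in abundance when compared per transcript length. Median TPM over the 50 mice was 177 for Atf4, 130 for Chac1, 42.7 for Atf5, 13.6 for Ddit3, 4.50 for Phgdh, 2.59 for Asns, 1.91 for Psat1, 1.69 for Trib3 and 0.108 for Fgf21. In all 50 mice Atf5 lay above Ddit3, Ddit3 above Phgdh, and Trib3 above Fgf21. The other neighbours crossed in part, with Atf4 above Chac1 in 42 of 50 mice, Phgdh above Asns in 43, Asns above Psat1 in 41 and Psat1 above Trib3 in 31. The range of each of these neighbours therefore ran into the next. Chac1, which degrades glutathione, was the second most abundant of the 9 in this muscle, whereas the gene for the hormone FGF21 was hardly detected.

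**Figure D1:**
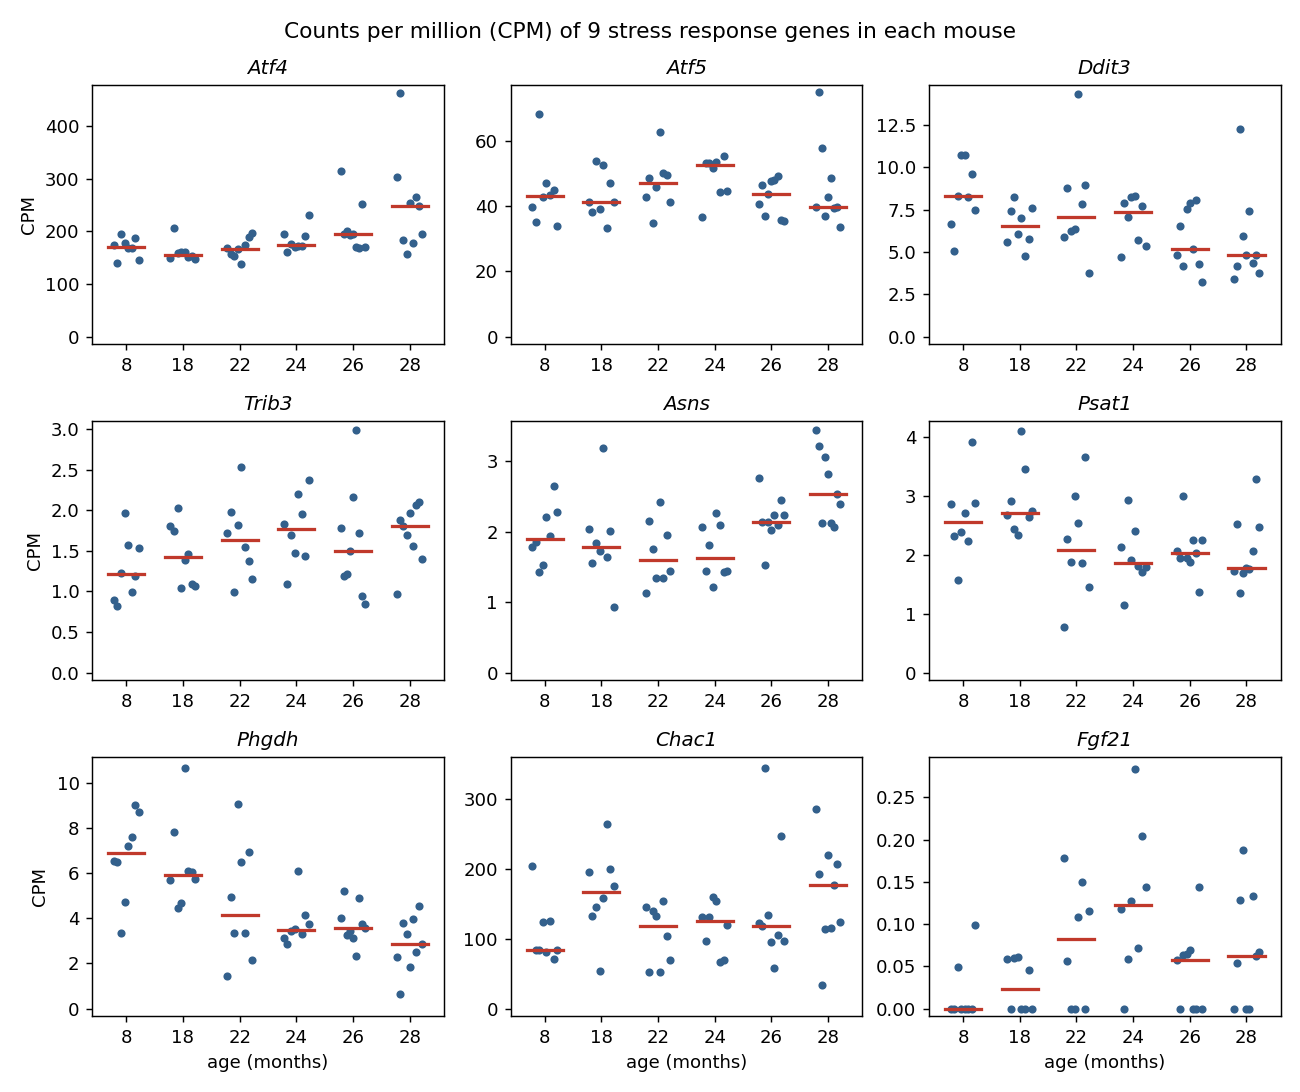
CPM (vertical axis) of the 9 genes in each of 50 mice against age in months, with 1 point per mouse and a red line at the median of each age. The 28 months-old mice reach up to 461 CPM for Atf4 and down to 0.644 CPM for Phgdh, and no panel separates 8 from 28 months without overlap.

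Between 8 and 28 months only 2 of the 8 members with enough reads to test passed a false discovery rate (FDR) of 0.01, and they went in opposite directions. Atf4 rose and Phgdh, the first enzyme of serine synthesis, fell. In the same comparison 39.6% of all 12586 tested genes passed, and these divide into 21.0% of all genes called higher and 18.7% called lower in the oldest mice. With 2 of 8, members passed less often than this background in number, a difference that was not tested. The median log2 fold change of the 8 members was 0.24, beside 0.01 for all tested genes.

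In no member were the 28 and 8 months-old mice fully separated. Over all genes, 2.46% had every 28 months-old mouse above every 8 months-old mouse, and 2.24% had the reverse. Against 8 months, no member passed at 18 months, with 0.0715% of all genes passing (0.0397% higher, 0.0318% lower), at 22 months, with 0.0397%, or at 24 months, with 0.612% (0.318% higher, 0.294% lower). In the edgeR test 0 members had an unadjusted p below 0.05 at 18 months and at 22 months, and 2 members did at 24 months. At 26 months 1 member passed, Phgdh, which was lower, while 18.4% of all genes did (9.84% higher, 8.54% lower). At that age 1.34% of all genes and no member had every mouse below every 8 months-old mouse.

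Between neighbouring ages no member passed in the edgeR test. Unadjusted p-values below 0.05 were obtained for 2 members from 18 to 22 months, 0 from 22 to 24, 1 from 24 to 26 and 1 from 26 to 28 months, and 0 genes of the whole table passed in the last 3 of these steps, with 0.00795% in the first. The F-test over all 6 ages called Atf4 (FDR = 0.000344), Phgdh (FDR = 0.000303) and Asns (FDR = 0.00533), where 35.4% of all genes passed. Asns lost this call when the 28 months-old mouse of replicate 1, 2, 4 or 5 was left out.

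**Figure D2:**
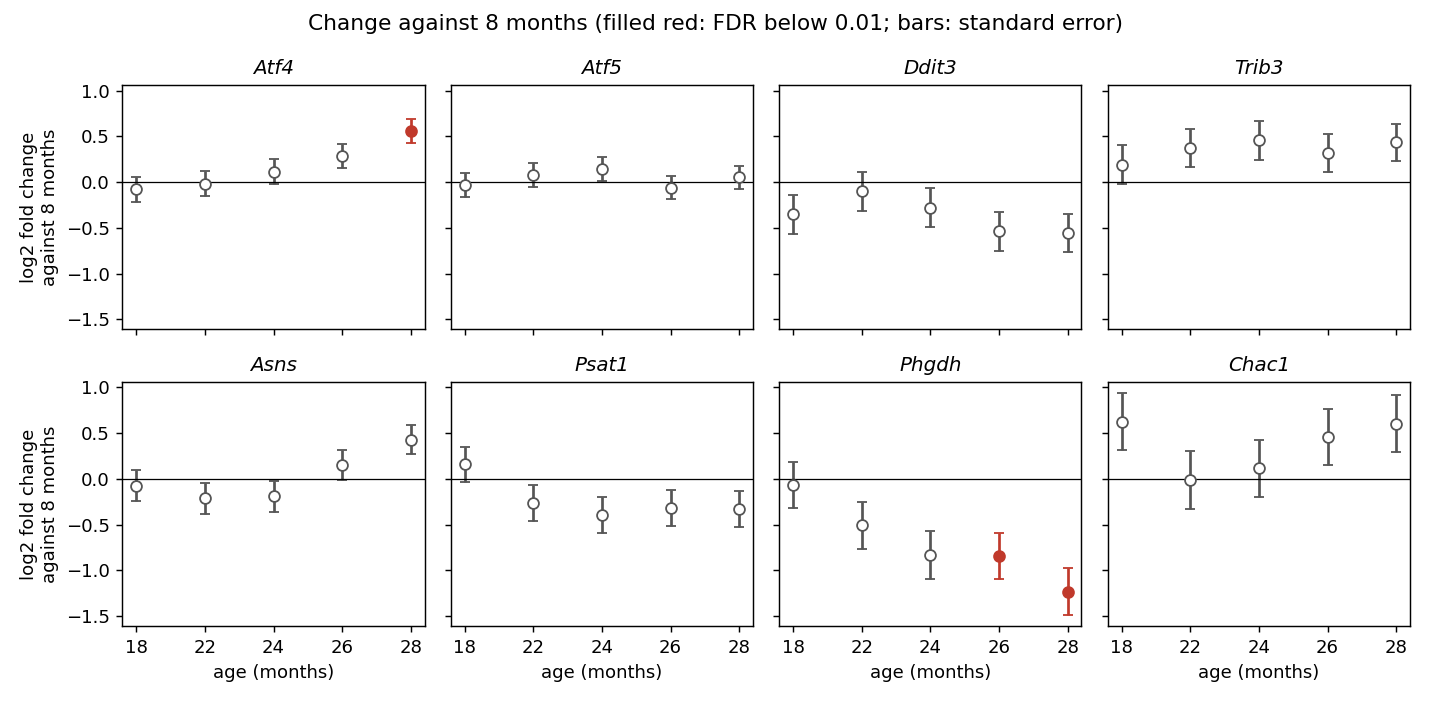
Log2 fold change of 8 members at 18, 22, 24, 26 and 28 months (horizontal axis) against 8 months, with standard errors as bars and filled red points where the FDR was below 0.01. Atf4 at 28 months (0.56) and Phgdh at 26 and 28 months (-0.84 and -1.23) are the filled points. The 5 points of a panel share the 8 months-old mice.

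Atf4 encodes the central transcription factor of the response. The gene lies at chr15:80255184-80257541 on the plus strand (GRCm38). Levels are given in CPM, the read count scaled to library size. At 8 months its level ranged from 140 to 196 CPM with a median of 171, and at 18 months it ranged from 147 to 207 with a median of 155. The corresponding values were 137, 167 and 197 CPM (lowest, median and highest) at 22 months and 161, 175 and 230 at 24 months.

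At 26 months the lowest, median and highest values of Atf4 were 167, 195 and 315 CPM, and at 28 months they were 157, 248 and 461 CPM. Thus 5 of 9 mice at 28 months lay above the highest 8 months-old mouse, while the lowest 28 months-old mice stayed within the 8-month range. The log2 fold change was 0.56 ± 0.13 (SE) at 28 against 8 months (FDR = 0.000563), a 1.47-fold rise. Against 22 months, with the diet begun at the same age, it was 0.58 ± 0.13 (FDR = 0.00076). Leaving out the 28 months-old mouse of replicate 2 lowered the log2 fold change against 8 months to 0.40, which still passed (FDR = 0.00367). With only the 2 ages in the fit, the rise no longer passed, with FDR = 0.0128 against 8 months and 0.0161 against 22 months.

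The mice of one age also spread more for Atf4 at the oldest age, with a coefficient of variation of 11.2% at 8 months and 37.3% at 28 months. Without the 28 months-old mouse of replicate 2 the latter was 23.2%. The mean absolute deviation of log2 CPM from the median of the age was 0.12 at 8 and 0.36 at 28 months. By this measure 64.4% of all tested genes spread more at 28 than at 8 months. An exact two-sided permutation test over the 17 mice gave p = 0.0446 for this difference and an adjusted p of 0.614 over all genes, so the difference did not pass. Without that mouse the difference in deviation was 0.17 in place of 0.24 and did not pass either (adjusted p = 0.349). No member passed the adjusted test of spread at 0.05, and no gene tested passed it with more spread at 28 months. Of all tested genes, 6.72% had an unadjusted p below 0.05 with more spread at 28 months.

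Atf5, a related factor that is controlled through translation like Atf4 and acts on mitochondrial stress genes, did not pass at any age. It lies at chr7:44812256-44816658 on the minus strand. The median was 43.2 CPM at 8 months (range 33.8 to 68.2) and 39.9 CPM at 28 months (range 33.6 to 75.0), with a highest median of 52.5 CPM at 24 months. Values of the 2 ages overlapped almost completely. The log2 fold change at 28 against 8 months was 0.05 ± 0.13 (FDR = 0.754), and its sign turned to -0.01 with upper-quartile scaling.

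Ddit3 encodes CHOP, a C/EBP family protein that promotes apoptosis under prolonged stress of the endoplasmic reticulum. It lies at chr10:127290774-127296288 on the plus strand. Within it GENCODE places a second gene entry of the same name, which was not analysed here, so reads shared by both could have been divided. At 8 months its level ranged from 5.06 to 10.7 CPM (median 8.27), and at 22 months from 3.77 to 14.3 CPM (median 7.06).

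At 26 months Ddit3 ranged from 3.21 to 8.08 CPM (median 5.17), and at 28 months from 3.38 to 12.2 CPM (median 4.84). At 28 months 6 of 9 mice lay below the lowest 8 months-old mouse and 1 lay above the highest. The log2 fold change of -0.56 ± 0.21 at 28 against 8 months did not pass (FDR = 0.0228). Against 22 months it was -0.46 ± 0.21 (FDR = 0.0747). Of the 17 mice of each comparison, 1 changed these calls when left out, the 28 months-old mouse of replicate 3, at 12.2 CPM. Without it the value was -0.78 (FDR = 0.000764) against 8 months and -0.68 (FDR = 0.00408) against 22 months. Without the 22 months-old mouse of replicate 5, at 14.3 CPM, the value against 22 months was -0.27 (FDR = 0.295).

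Trib3, a pseudokinase that is induced by ATF4 and CHOP and restrains both ATF4 and AKT, was rare, with 13 to 47 reads per mouse. It lies at chr2:152337422-152344032 on the minus strand. The median was 1.21 CPM at 8 months, 1.77 at 24 and 1.8 at 28 months, but the ranges of 0.826 to 1.96 CPM at 8 months and 0.966 to 2.11 CPM at 28 months overlapped. The log2 fold change of 0.43 ± 0.21 did not pass (FDR = 0.0721).

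Asns, which makes asparagine, passed against 22 months but not against 8 months. It lies at chr6:7675169-7693254 on the minus strand. The median was 1.9 CPM at 8 months (range 1.43 to 2.66), 1.79 at 18 months (range 0.937 to 3.20), 1.61 at 22 months (range 1.13 to 2.43) and 1.63 at 24 months (range 1.21 to 2.27). It was 2.14 CPM at 26 months (range 1.53 to 2.76) and 2.54 at 28 months (range 2.06 to 3.45). All 9 mice at 28 months lay above the median of the 8 months-old mice, and 4 lay above the highest of them.

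Against 22 months, Asns rose with a log2 fold change of 0.64 ± 0.16 (FDR = 0.00181), 1.56-fold. Against 8 months the value of 0.43 ± 0.16 did not pass (FDR = 0.0219). Thus 2 of 8 members, Atf4 and Asns, passed at 28 against 22 months, where 27.7% of all genes passed, with 16.2% of all genes higher and 11.5% lower. Both members were higher. These 2 comparisons share the 28 months-old mice.

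Phgdh, Psat1 and Psph encode the 3 successive enzymes that make serine from a glycolytic intermediate, and the first 2 are usually raised by ATF4. Phgdh lies at chr3:98313170-98339990 on the minus strand. Its lowest, median and highest values were 3.35, 6.87 and 9.0 CPM at 8 months, 4.47, 5.91 and 10.6 at 18 months and 1.43, 4.14 and 9.06 at 22 months. They were 2.88, 3.49 and 6.09 CPM at 24 months, 2.31, 3.57 and 5.22 at 26 months and 0.644, 2.87 and 4.53 at 28 months. Every mouse of 24, 26 and 28 months lay below the 8-month median, and 6 of 9 mice at 28 months lay below the lowest 8 months-old mouse.

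The log2 fold change of Phgdh was -1.23 ± 0.26 at 28 against 8 months (FDR = 0.000116), so the level was 0.426 times that of the 8 months-old mice. Without the 28 months-old mouse of replicate 2, which held the lowest value, it was -1.09 and still passed (FDR = 0.000314), and over all mice left out in turn the log2 fold change lay between -1.34 and -1.09. At 26 against 8 months it was -0.84 ± 0.25 (FDR = 0.0093), a call that held in 4 of 17 fits with 1 mouse left out and was lost with the mouse number as a block (FDR = 0.0143). Against 22 months the value of -0.72 ± 0.26 did not pass (FDR = 0.0234). It passed in 1 of 17 fits with 1 mouse left out, that without the 22 months-old mouse of replicate 1, at 1.43 CPM (-0.86, FDR = 0.00539), and was -0.52 (FDR = 0.105) without the 22 months-old mouse of replicate 4.

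Psat1 lies at chr19:15904678-15947337 on the minus strand. Its median was 2.55 CPM at 8 months (range 1.58 to 3.90), 2.71 at 18 months (range 2.34 to 4.10) and 1.77 at 28 months (range 1.35 to 3.29). Although 8 of 9 mice at 28 months lay below the 8-month median, only 1 lay below the lowest 8 months-old mouse. The log2 fold change of -0.33 ± 0.19 did not pass (FDR = 0.149).

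Chac1 degrades glutathione and is among the genes that ATF4 induces most in cultured cells. It lies at chr2:119351229-119354381 on the plus strand. Its lowest, median and highest values were 71.2, 84.2 and 205 CPM at 8 months, 54.3, 167 and 264 at 18 months, 58.8, 118 and 345 at 26 months and 33.4, 177 and 285 at 28 months. Mice of one age differed up to several-fold, with a coefficient of variation of 41.2% at 8 months and 61.4% at 26 months, and the former was 23.5% without the 8 months-old mouse of replicate 1. At 28 months 3 of 9 mice lay above the highest 8 months-old mouse and 1 below the lowest, and the log2 fold change of 0.61 ± 0.31 did not pass (FDR = 0.0919).

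Fgf21, the gene of the stress hormone, lies at chr7:45613886-45615490 on the minus strand and did not reach 1 CPM in any mouse. It collected 49 reads over the 50 mice. The sum over mice was 3 reads at 8 months, 4 at 18, 11 at 22, 15 at 24, 6 at 26 and 10 at 28 months, with at most 4 reads in 1 mouse. In 21 mice the count was 0, which allows a level of up to 0.143 to 0.209 CPM (3 counts of the library, counting error only). At 24 months 5 of 8 mice lay above the highest 8 months-old mouse. In an edgeR fit without the filter on low counts Fgf21 did not pass, neither at 24 against 8 months (unadjusted p = 0.00324, FDR = 0.109) nor over all 6 ages (unadjusted p = 0.0323, FDR = 0.0972).

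Markers of other cells moved with the serine genes. Over the 50 mice the genes most like Phgdh in log2 CPM were Plin1 (r = 0.87), which coats lipid droplets of adipocytes, Prkar2b (r = 0.87), a regulatory subunit of protein kinase A, and Adipoq (r = 0.86), the adipocyte hormone adiponectin. Those most like Psat1 were Cfd (r = 0.76), Retn (r = 0.73) and Cidec (r = 0.71), all adipocyte genes. The ages share in these values. After centring each gene on the mean of its age, r was 0.83 for Phgdh with Plin1 and 0.69 for Psat1 with Cfd.

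Within ages, all 6 adipocyte markers correlated with Phgdh past an adjusted p of 0.05 over all genes, with r from 0.53 to 0.83, while 5.96% of all genes passed with Phgdh. For Plin1 the unadjusted permutation p was 1e-05, the smallest that 100000 permutations can give, with an adjusted p of 0.00213, a Spearman's rho of 0.79 (adjusted p = 0.0035), and r = 0.83 without the 2 mice farthest from the Phgdh median. All 6 Schwann cell markers also passed with Phgdh, with r from 0.64 to 0.75. With Psat1, 4 of 6 adipocyte and 4 of 6 Schwann cell markers passed, where 0.302% of all genes did. By Spearman's rho, the only one of these 8 to pass with Psat1 was Mbp (adjusted p = 0.0419). Without the 28 months-old mouse of replicate 2, 5 of 6 adipocyte and 6 of 6 Schwann cell markers passed with Phgdh. With Psat1, 5 of 6 markers of each list then passed.

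The summed adipocyte markers had a median of 296 TPM at 8 months (range 99.7 to 383), 252 at 18 months, 123 at 24 months and 123 at 28 months (range 87.4 to 201). Of the 6 markers, 5 fell between 8 and 28 months and their median log2 fold change was -1.37. The Schwann cell markers summed to a median of 210 TPM at 8 months (range 86.7 to 347) and 131 TPM at 28 months (range 99.0 to 275), with 1 of 6 lower. The part of these cells in the lower Phgdh was not tested.

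**Figure D3:**
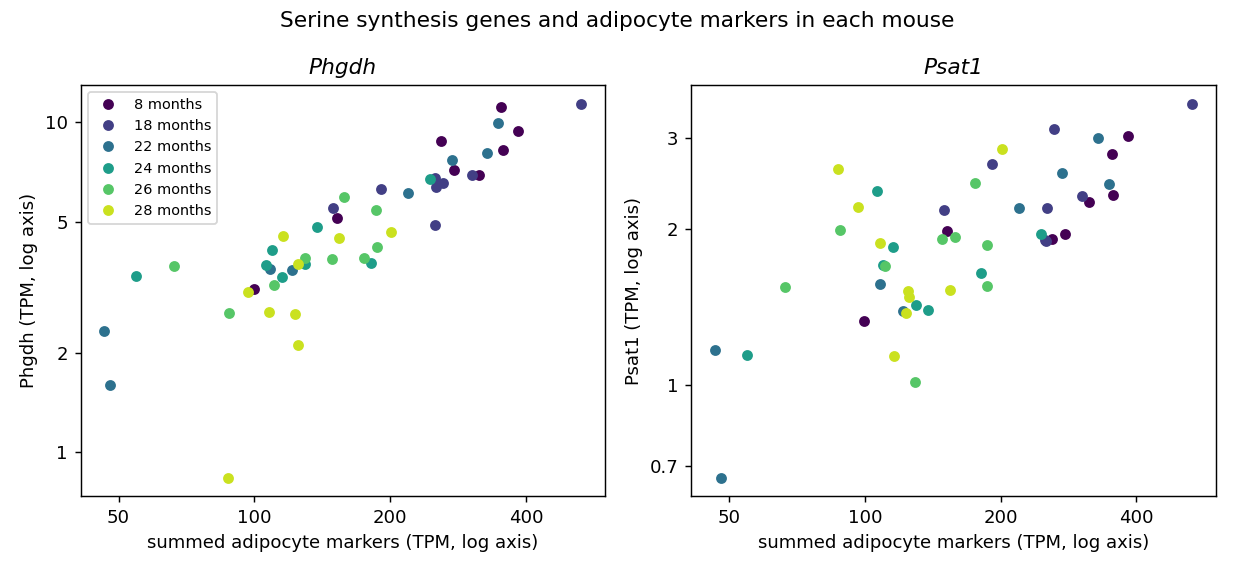
Phgdh (left) and Psat1 (right) in TPM against the summed TPM of 6 adipocyte markers, 1 point per mouse, coloured by age, on log axes. Points with low marker sums tend to lie low for Phgdh, and the lowest Phgdh value, 0.834 TPM, belongs to a 28 months-old mouse with 87.4 TPM of adipocyte markers.

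From mouse to mouse, few members were related to each other. Of 28 pairs, 3 passed an adjusted p of 0.05 within ages. The adjustment was made over all genes tested with the first-named member of a pair. With the other member first, the adjusted p can differ, and so can the call. Atf5 and Ddit3 were positively related, with r = 0.58 (p = 6e-05, adjusted p = 0.00487) and rho = 0.69 (p = 1e-05, adjusted p = 0.00177), and r was 0.77 without the 2 farthest mice. Ddit3 and Trib3 had r = 0.41 (p = 0.00638, adjusted p = 0.0381) and rho = 0.39 (p = 0.0101, adjusted p = 0.0484), with r = 0.38 without the 2 farthest.

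Ddit3 and Chac1 were negatively related, with r = -0.43 (p = 0.00592, adjusted p = 0.0364). Spearman's rho of -0.37 (p = 0.0141) did not pass after adjustment (0.0606), and r was -0.23 without the 2 farthest mice, so the size of r depends on them. For Psat1 and Phgdh, r = 0.51 (p = 0.00187) and rho = 0.44 (p = 0.00388) did not pass (adjusted p = 0.222 and 0.27). Without the 28 months-old mouse of replicate 2, a test added after its values were seen, this pair passed as the fourth. With the 26 and 28 months-old mice alone 0 of 28 pairs passed, and Psat1 with Phgdh had r = -0.17 (adjusted p = 0.893). With the 8 to 24 months-old mice alone, the pairs that passed were Atf5 with Ddit3 (r = 0.65, adjusted p = 0.0109) and Psat1 with Phgdh (r = 0.84, adjusted p = 0.00572). On log2(TPM + 1) 4 pairs passed, without Ddit3 and Chac1 (adjusted p = 0.0552) but with Atf5 and Trib3 (r = 0.44, adjusted p = 0.0157) and Atf4 and Phgdh (r = -0.38, adjusted p = 0.0473).

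On log2 CPM Atf4 passed with none of the other 7 members, while 31.0% of all tested genes passed with it. Its r with Asns was 0.12 (p = 0.387, adjusted p = 0.526), with rho = 0.04 (p = 0.776, adjusted p = 0.87). Its r with Chac1 was 0.34 (p = 0.0537, adjusted p = 0.124), with rho = 0.35 (p = 0.0211, adjusted p = 0.0773). Its r with Phgdh was -0.39 (p = 0.0199, adjusted p = 0.0598), with rho = -0.22 (p = 0.158, adjusted p = 0.31). Without the 28 months-old mouse of replicate 2, the r of Atf4 with Phgdh was -0.15 (adjusted p = 0.429). In the tests of every gene against Trib3, and against Asns, no gene passed. The pair of Ddit3 and Trib3 therefore passed only with the adjustment over the genes tested with Ddit3. The same holds for Ddit3 and Chac1, because only 74 of 12585 genes passed with Chac1, all with stronger evidence than this pair. Of the pairs that passed, only Atf5 and Ddit3 do so with either member first. The number of pairs that passed thus depends on which member is named first. Of all genes, 19.7% passed with Ddit3, 5.95% with Atf5 and 0.588% with Chac1.

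**Figure D4:**
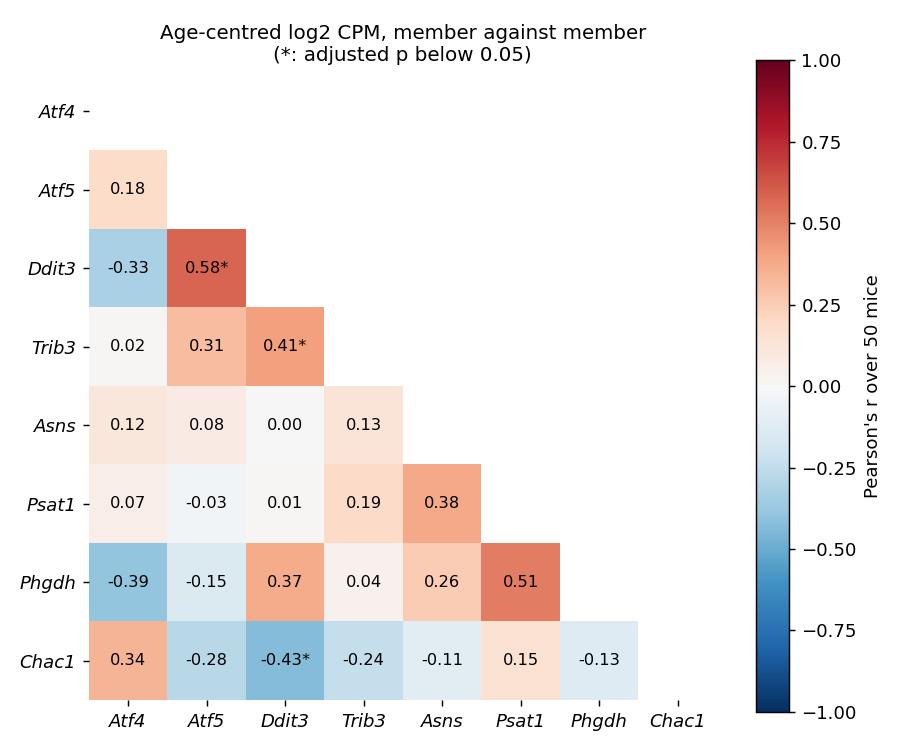
Pearson's r of age-centred log2 CPM between each pair of 8 members over 50 mice, as colour and number. An asterisk marks an adjusted p below 0.05, adjusted over the genes tested with the member of the column. The 3 asterisks all lie on pairs with Ddit3, and the Atf4 column holds none.

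The genes most like Atf4 over the 50 mice were Ctsl (r = 0.91), a lysosomal protease, Eif4ebp1 (r = 0.91), a translation repressor, and Map1lc3b (r = 0.91), an autophagy protein, and the last 2 are known ATF4 targets. After centring on ages r was 0.86, 0.88 and 0.87. Those most like Atf5 were Smtnl1 (r = 0.73), Cryab (r = 0.68), a small heat shock protein, and Dhrs4 (r = 0.68). For Ddit3 they were Col8a2 (r = 0.78), 4732491K20Rik (r = 0.76) and Cd200 (r = 0.76).

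For Chac1 the most similar genes were Flvcr1 (r = 0.69), Sgk1 (r = 0.64), a kinase induced by glucocorticoids, and D930019O06Rik (r = 0.60). The likeness was weaker for Asns, with Apod (r = 0.62), Mcph1 (r = 0.61) and Scn7a (r = 0.61), and for Trib3, with Utp23, Arhgap45 and Kif21b (r = 0.51 each).

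Other cell markers also moved with Atf4, Atf5 and Ddit3. Within ages 5 of 6 fibroblast markers passed with Atf4 at a negative r, down to -0.78 for Col1a1, where 14.5% of all genes passed at a negative r. Without the 28 months-old mouse of replicate 2, 4 of 6 passed. Fibroblast markers summed to a median of 961 TPM at 8 months (range 746 to 1061) and 731 TPM at 28 months (range 604 to 826), with 4 of 6 lower. Of 8 denervation markers, 7 rose between 8 and 28 months, and the 9 such genes in the table summed to a median of 158 TPM (range 125 to 198) at 8 months and 278 TPM (range 235 to 621) at 28 months, while 2 passed with Atf4 at a positive r and 1 at a negative r. Without that mouse 1 denervation marker passed, at a positive r, and 4 of 8 fast myofibre markers passed with Atf4 at a positive r, against 0 of 8 with it.

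With Atf5, 5 of 6 slow myofibre markers passed at a positive r, from 0.37 to 0.50 over the 6. At a negative r, 4 of 8 fast myofibre markers passed with Atf5, where 5.95% of all genes passed in either direction. With Ddit3, 3 of 5 endothelial markers and 2 of 6 fibroblast markers passed at a positive r, and 3 of 8 fast myofibre markers at a negative r. Of all genes, 19.7% passed with Ddit3 in either direction, and the marker counts were not tested against this share. Without the 28 months-old mouse of replicate 2, the counts with Ddit3 were 4, 2 and 4. With Chac1, 1 of 8 denervation markers passed, where 0.588% of all genes did. The part of these cells and fibres in the members' levels was not tested.

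The wider pathway was followed through 11 lists of known genes, all at 28 against 8 months. In this comparison 21.0% of all tested genes were higher and 18.7% lower, and no list was tested against these shares. Ppp1r15a stands in both the eIF2 list and that of further ATF4 targets and is counted in each. Among the sensors, 3 of 8 kinases and regulators were higher and 1 lower. Impact (0.85 ± 0.23, FDR = 0.00176) and Gcn1l1 (0.81 ± 0.12, FDR = 1.03e-06), which restrains and activates the amino acid sensor GCN2 respectively, had the largest rises. Eif2ak4, GCN2 itself, was the third to rise (0.47 ± 0.11, FDR = 0.000477). Oma1, the mitochondrial protease that relays mitochondrial stress, fell by 0.23 on the log2 scale (FDR = 0.0098).

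Among eIF2, its exchange factor eIF2B and the eIF2α phosphatases, 6 of 13 genes were higher and 1 lower. The largest rises were those of the 2 regulatory subunits that direct dephosphorylation of eIF2α, Ppp1r15a, or GADD34 (1.45 ± 0.26, FDR = 1.39e-05), and Ppp1r15b (0.68 ± 0.11, FDR = 3.56e-06). The catalytic subunit Ppp1cc fell by 0.39 (FDR = 6.69e-05). Of 13 bZIP partners, 7 were higher and 0 lower, led by Cebpd (2.82 ± 0.50, FDR = 1.27e-05) and Fosl2 (2.0 ± 0.37, FDR = 2.05e-05).

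Of 24 further ATF4 targets, 11 were higher and 4 lower, with a median log2 fold change of 0.25. Ddit4, an inhibitor of mTORC1 that glucocorticoids also induce (2.21 ± 0.55, FDR = 0.000778), and the secreted glycoprotein Stc2 (1.81 ± 0.41, FDR = 0.000311) rose most. Aldh18a1, the first enzyme of proline synthesis (-0.76 ± 0.17, FDR = 0.000177), and the neutral amino acid transporter Slc1a5 (-0.76 ± 0.17, FDR = 0.000221) fell most. Gdf15, Slc7a11 and Cdsn had too few reads to test.

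In the serine and one-carbon list 6 of 16 genes were called lower and 1 higher, with a median log2 fold change of 0.13 over the 16 genes. The fall included Psph, the third enzyme of serine synthesis (-0.76 ± 0.14, FDR = 2.71e-05), and Srr, which converts serine between its mirror forms (-0.55 ± 0.12, FDR = 0.000129). The 1 gene that rose was Mthfd1 (0.18 ± 0.05, FDR = 0.00587).

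Of 21 aminoacyl-tRNA synthetases, which charge tRNAs and include ATF4 targets, 10 were higher and 0 lower, led by Vars (0.74 ± 0.09, FDR = 5.25e-08) and Eprs (0.72 ± 0.12, FDR = 2.94e-06). In the IRE1 and ATF6 arms of the unfolded protein response, 6 of 21 genes were higher and 3 lower, beside 21.0% and 18.7% of all genes. Edem1 (0.68 ± 0.18, FDR = 0.00159) and Dnajb9 (0.65 ± 0.14, FDR = 0.000124) rose, and Sec61b (-0.63 ± 0.15, FDR = 0.000363) and Pdia4 (-0.57 ± 0.11, FDR = 6.98e-05) fell. The chaperone Hspa5, or BiP, had a log2 fold change of 0.04 ± 0.10 (FDR = 0.762).

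Mitochondrial stress proteases and chaperones gave 0 of 13 higher and 2 lower, Phb (-0.42 ± 0.09, FDR = 0.000194) and Htra2 (-0.33 ± 0.10, FDR = 0.00363). Of 9 FGF receptors and ligands, 2 were higher, Fgf2 (0.82 ± 0.19, FDR = 0.000326) and Fgfr1 (0.70 ± 0.14, FDR = 4.11e-05), while Klb, the co-receptor that FGF21 requires, had too few reads to test. Akt1 was the 1 of 5 TRIB and AKT genes to pass (0.74 ± 0.14, FDR = 2.44e-05). In the glutathione list Gclc, which limits glutathione synthesis, rose (0.69 ± 0.12, FDR = 1.5e-05), and Chac2, the relative of Chac1 (-0.60 ± 0.13, FDR = 0.000208), and Oplah (-0.36 ± 0.10, FDR = 0.00191) fell, of 8 genes.

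**Figure D5:**
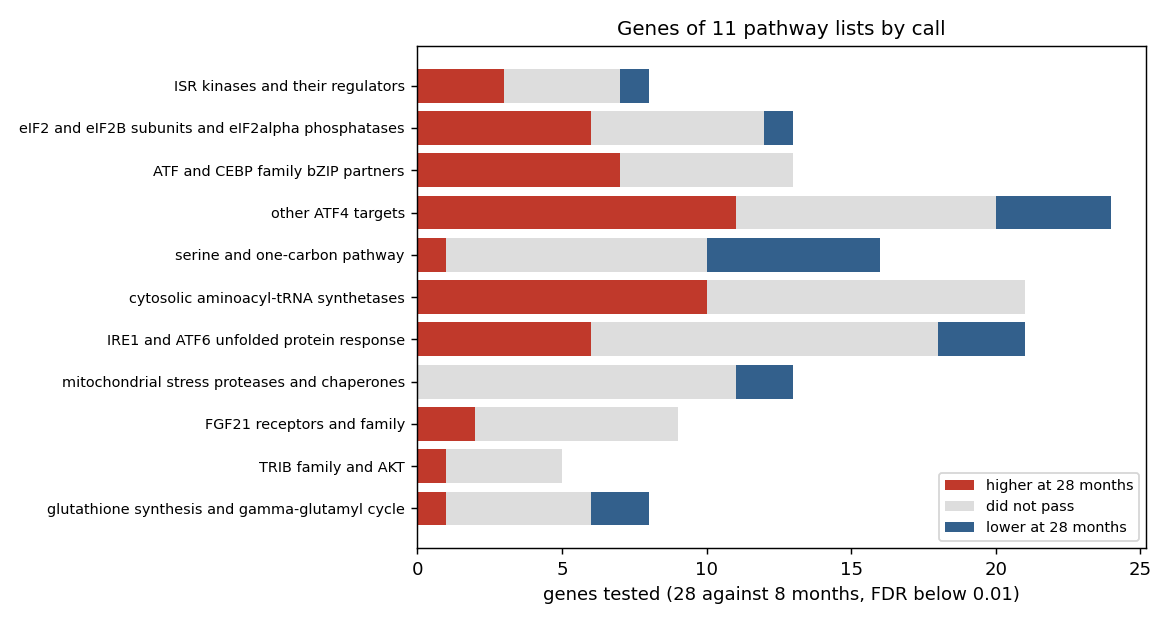
Number of tested genes (horizontal axis) of each of 11 pathway lists that were higher (red), lower (blue) or did not pass (grey) at 28 against 8 months at an FDR of 0.01. The synthetases show 10 of 21 higher and 0 lower, the serine and one-carbon list 1 of 16 higher and 6 lower. Over all genes 21.0% were higher and 18.7% lower.

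The same lists were set against Atf4 from mouse to mouse within ages. With Atf4, 17 of 21 synthetases and 11 of 13 genes of the eIF2 list passed at a positive r, where 16.5% of all genes passed at a positive r. The median r was 0.61 and 0.63, beside -0.02 for all genes. Without the 28 months-old mouse of replicate 2 the counts were 16 and 12, where 15.0% of all genes passed at a positive r.

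Of the 24 further ATF4 targets, 8 passed with Atf4 at a positive r and 1, Vegfa, at a negative r of -0.69, and without the 28 months-old mouse of replicate 2 the counts were 7 and 2. Those with the highest r were Eif4ebp1 (r = 0.88), Map1lc3b (r = 0.87) and Ppp1r15a (r = 0.81), each with p = 1e-05 and an adjusted p of 0.00024, and their rho was 0.82, 0.78 and 0.68. The r of these 3 without the 2 farthest mice was 0.83, 0.81 and 0.72. In the serine and one-carbon list 0 of 16 passed at a positive r and 2 at a negative r, Srr (r = -0.70, rho = -0.74) and Psph (r = -0.46, rho = -0.13), with a median r of -0.11. For Psph r was -0.10 without the 2 farthest mice, so it rests on them, and without the 28 months-old mouse of replicate 2 the counts were 1 and 1.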

How the data were processed

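Strand-specific paired-end mRNA libraries were processed by the authors, who trimmed reads with Cutadapt 1.9.1 and assigned them with kallisto 0.43.1 to protein-coding transcripts of Ensembl (GRCm38). A read that fitted several transcripts was shared equally among them. The authors deposited counts summed per gene, and TPM per gene. Members and lists were chosen with earlier results of these data known.

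Here, the 12586 of 23880 genes that reached 1 CPM in 8 or more of the 50 mice were tested on the deposited counts with edgeR 4.0.16, TMM factors and the quasi-likelihood test, with all 6 ages in 1 fit and Benjamini-Hochberg FDR below 0.01. CPM used TMM-scaled totals. The 2 genes with the largest rise and fall past the threshold in each list were named, and the 3 genes with the highest r to each member. Correlations used log2 CPM centred on ages and 100000 two-sided permutations within ages, adjusted over 12585 genes. For a pair of members, the adjusted p is that over the genes tested with the first-named member. The tests were tested on simulated data. No 2 libraries of one age agreed within counting noise, and libraries of different ages were not compared.

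Comparisons of Atf4 and of the markers within ages, and the genes Eif2ak4, Hspa5, Klb, Gdf15, Slc7a11, Cdsn, Col1a1, Mbp, Vegfa, Srr and Psph beside Atf4, and the targets named beside them, were chosen after their values were seen. Of 166 different genes in the lists, 162 were found in the table. Leaving out the 28 months-old mouse of replicate 2 from relations, and single mice from coefficients of variation, was also chosen after seeing the data. Positions are from GENCODE vM21 (GRCm38), and upstream sequences from RefSeq (GRCm38.p6). Alternatives included limma 3.58.1 on log2(TPM + 1), DESeq2 1.42.0, upper-quartile scaling, no filter and each mouse left out.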

Additional observations from a re-analysis of the deposited data

Results flagged for a closer look

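Dixon's test at 95% was run on 54 sets of CPM values, 1 per member and age. In 7 sets a mouse lay unusually far from its nearest neighbour for the range of its group. Chance alone gives about 1 in 20 sets if values follow a normal distribution. That was not checked for CPM or for the few reads of Fgf21. All 7 mice were the highest of their set. Atf4 reached 207 CPM in the 18 months-old mouse of replicate 2, beside 147 to 161 in the others, and 461 CPM in the 28 months-old mouse of replicate 2, beside 157 to 304. Atf5 reached 68.2 CPM in the 8 months-old mouse of replicate 3, beside 33.8 to 47.2, and Chac1 205 CPM in that of replicate 1, beside 71.2 to 126. Ddit3 reached 12.2 CPM in the 28 months-old mouse of replicate 3, beside 3.38 to 7.39. Phgdh reached 6.09 CPM in the 24 months-old mouse of replicate 5, beside 2.88 to 4.16. Fgf21 reached 0.144 CPM, or 2 reads, in the 26 months-old mouse of replicate 8.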

How the results depend on the processing

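Phgdh lost its call at 26 against 8 months, leaving 0 members, without a filter on low counts (FDR = 0.0119), with the replicate block (FDR = 0.0143) and with limma on log2(TPM + 1) (FDR = 0.0146) or log2(TPM + 0.1) (FDR = 0.0228). With only the 2 ages in the fit the count was 1 at 28 against 8 months and 1 at 28 against 22 months, since Atf4 was lost; the cause was not tested. With mice left out in turn, the counts of members ranged from 0 to 1 at 26 against 8 months, from 2 to 3 at 28 against 8 and 28 against 22 months, and from 2 to 4 over all ages. Of 28 pairs, 0 passed with only the 26 and 28 months-old mice, where fewer mice enter, and 4 passed on log2(TPM + 1). With only the 8 to 24 months-old mice, Atf5 with Ddit3 and Psat1 with Phgdh passed.

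Signs turned only for values that never passed. These were Atf5 at 28 against 8 months (-0.0062 with upper-quartile factors), Trib3 at 28 against 22 months (-0.0059 with upper-quartile factors) and Psat1 at 28 against 22 months (0.011 and 0.0448 with limma at the 2 pseudocounts). With mice left out, Atf5 ranged from -0.111 to 0.0572 at 26 against 8 months, -0.0672 to 0.167 at 28 against 8 and -0.152 to 0.0387 at 28 against 22 months, Trib3 from -0.0174 to 0.174 and Psat1 from -0.192 to 0.0700 at 28 against 22 months. Whether mice of different ages with the same number share anything was not tested. Deviations of same-numbered mice correlated with a median r of 0.0513, against -0.0059 for others. The r was above 0.1 in 47 of 121 same-numbered pairs and in 227 of 920 others. The block changed no other call of a member.

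Trib3, Asns and Psat1 rest on medians of 23.5, 35.5 and 46 reads per mouse at 8 months, and Fgf21 on too few to compare ages. Between mice of different ages, p-values measure the spread between single mice of 1 sex and strain.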
